A study of Rattus norvegicus with 12 samples.

Results

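The glutathione transferases, UDP-glucuronosyltransferases and sulfotransferases of the rat were followed in liver and renal cortex after trichloroethylene (TCE), a chlorinated solvent. Members were all genes whose array probe sets carried exactly 1 gene symbol beginning with Gsta, Gstm, Gstp, Gstt, Gsto, Gstk, Mgst, Ugt1, Ugt2 or Sult, each gene represented by its probe set with the highest mean over all arrays. This gave 44 of 14217 genes on the array, 22 of them glutathione transferases, 8 UDP-glucuronosyltransferases and 14 sulfotransferases, drawn from 47 probe sets. Neither Gsta2 nor any Ugt1 gene was a member, because the probe sets that carry those symbols carry several; 4 such shared probe sets, 2 of them with Ugt1 symbols, are described in the closing section.

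These 3 enzyme families attach glutathione, glucuronic acid or sulfate to foreign and endogenous compounds and so make them easier to excrete. Glutathione transferases join glutathione to electrophiles, and with TCE this forms a conjugate, mainly in liver, that enzymes of the renal proximal tubule process to a reactive thiol. UDP-glucuronosyltransferases of the endoplasmic reticulum transfer glucuronic acid, among others to trichloroethanol, the alcohol formed when TCE is oxidised, and cytosolic sulfotransferases use 3'-phosphoadenosine-5'-phosphosulfate (PAPS) to sulfate phenols, steroids and bile acids.

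RNA came from male rats of 7 to 9 weeks, whose strain the labels give as F-344 (Wistar-derived). The 3 treated rats received TCE by mouth at 16 mg/kg per day for 3 days in corn oil, given at 5 ml/kg, and the 3 control rats received the oil alone. All were killed 24 h after the last dose. Liver and renal cortex each gave 3 treated and 3 control arrays, 12 in all, measured with GeneChip rat genome arrays, where each transcript is read by a set of short probes. Values are log2 units of the deposited table, which run from a shared lowest value of 2.17 to 16.5, and precision is limited by having 3 arrays a group. Tissue was taken in bulk, so fewer cells of a type and less RNA per cell cannot be told apart.

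Arrays of 1 group correlated at 0.9928 to 0.997 over all probe sets, and no 2 arrays were identical. The tissue labels were borne out by marker genes: 9 of 9 hepatocyte markers were higher in control liver and 10 of 10 proximal tubule markers were higher in control kidney, 9 of these past the test. The control kidney array of replicate 2 stood apart. Its 9 hepatocyte markers averaged 6.98 log2 units, against 5.33 and 4.51 in the other control kidneys. Treated kidneys lay at 4.11 to 5.45 and livers at 14.7 to 14.9. The array had the highest value of the 3 control kidneys for 9 of 9 markers, Tat in a tie with kidney control 3 at 2.27. Member values that this array moves most are given with and without it. RNA quality also moved with treatment: the gap between 3' and 5' Gapdh control probe sets was 1.49 ± 0.254 after TCE and 0.814 ± 0.0398 without it in liver (SD, n = 3; two-sided exact permutation test, p = 0.1, below which groups of 3 cannot go). In kidney it was 0.655 ± 0.189 after TCE and 0.971 ± 0.110 without it (exact permutation p = 0.2). The same gap of Actb was 5.33 ± 0.306 and 4.64 ± 0.521 in liver (exact permutation p = 0.3), and 4.31 ± 0.0930 and 4.48 ± 0.0795 in kidney (exact permutation p = 0.1).

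Without TCE, the members divided sharply between the organs. A set of sulfotransferases, Ugt2b genes and glutathione transferases (Sult1e1, Sult1c3, Gstp3, Ugt2b15, Ugt2b1, Ugt2b10, Mgst2 and Sult2a6) had bright values in control liver and values near the bottom of the scale in control renal cortex. Gstp1, Gsta3, Sult4a1, Sult1c2a, Sult1c2, Sult2b1 and Gstt3 were higher in renal cortex. In limma's test of 37 members bright enough to be tested, 31 differed at an adjusted p under 0.05, 20 higher in liver and 11 higher in kidney, which is 83.8% against a background of 68.6% over all 10654 genes tested. The background was 29.7% higher and 38.9% lower in liver. Several of these members passed the brightness filter through liver alone, so their share is a description. The values of 34 of the 37 did not overlap between the organs, with a background of 75.7%. Adjusted p among the 31 ran from 1.48e-08 for Mgst2 to 0.0399 for Gsta1, and the median difference, liver minus kidney, was 1.12 over members and -0.095 over all genes.

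**Figure D1:**
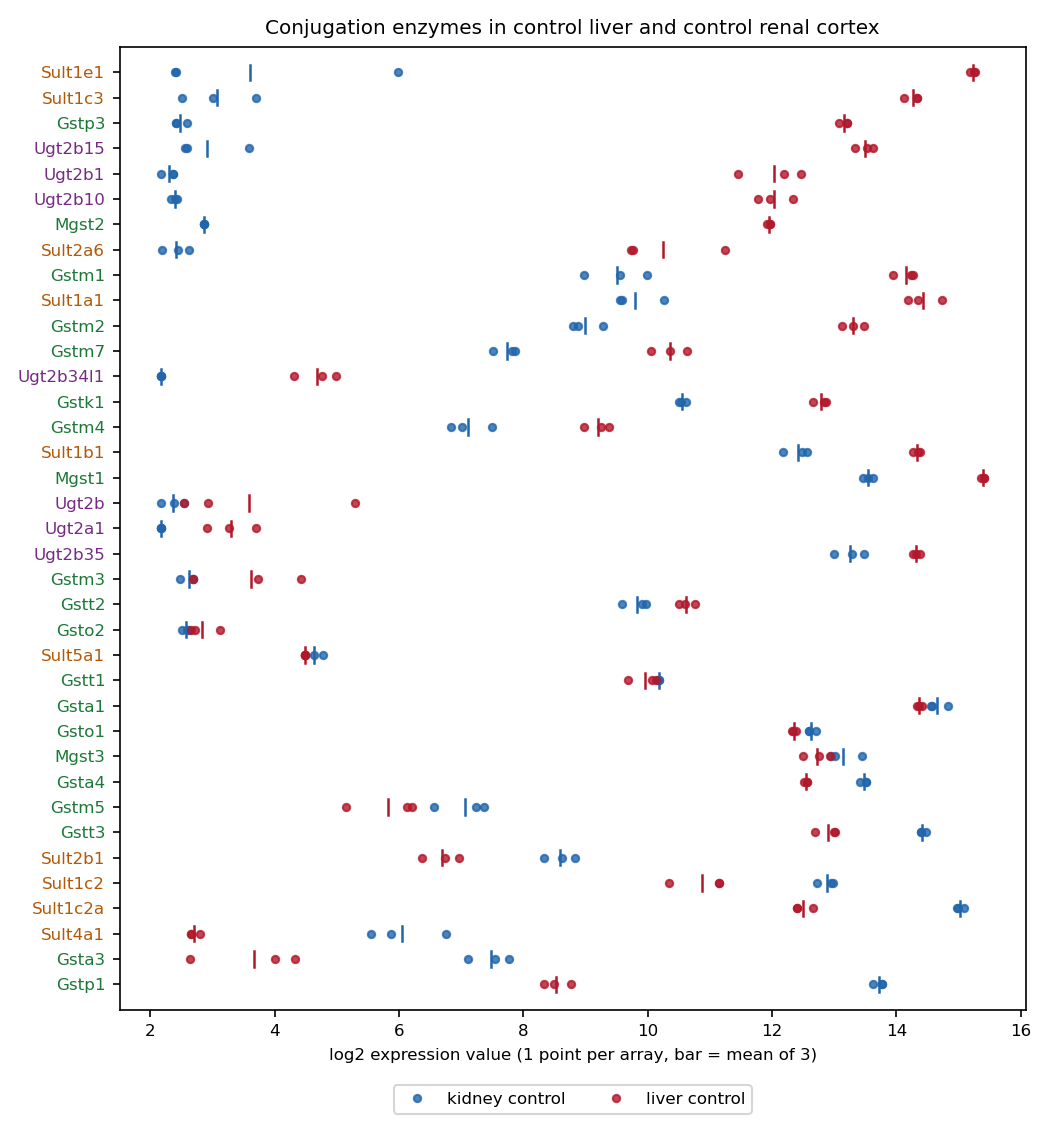
Log2 expression values of the 37 members tested in control liver (red) and control renal cortex (blue), 1 point per array with a bar at the mean of 3, ordered by the liver minus kidney difference; gene names are green for glutathione transferases, purple for UDP-glucuronosyltransferases and orange for sulfotransferases. Sult1e1 at the top lies at 15.18 to 15.27 in liver and 2.40 to 5.99 in kidney, and Gstp1 at the bottom at 8.33 to 8.76 in liver and 13.63 to 13.77 in kidney; the small kidney-high differences of Gsta1 and Gsto1 turn to liver-high ones when each array is centred on its median.

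The pi-class glutathione transferases showed opposite patterns in neighbouring genes. Gstp1, the pi-class enzyme that is scarce in normal rat hepatocytes and a classical marker of preneoplastic liver foci, read 13.77, 13.77 and 13.63 in control kidneys and 8.76, 8.49 and 8.33 in control livers. The organs did not overlap, and the liver minus kidney difference was -5.19 ± 0.13 (SE), 36.5-fold in favour of kidney (limma, adjusted p = 7.42e-07). Gstp3, its paralog, read 13.20, 13.21 and 13.08 in control livers but 2.59, 2.42 and 2.42 in control kidneys. That difference was 10.69 ± 0.08, and since the kidney values sit near the bottom of the scale it says how far liver lies above that bottom. No protein-coding gene lies between Gstp1 and Gstp3 on chromosome 1 in the RefSeq gene table of assembly GRCr8.

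The stretches in front of these genes are shown because the pair is adjacent yet higher in opposite organs. Each is the 250 bases before the RefSeq transcript start in GRCr8, 5′ to 3′ on the gene's strand, Gstp1 from chr1:210769706-210769955 and Gstp3 from chr1:210787685-210787934, both on the minus strand; capitals mark a match to the core of the antioxidant response element, TGACNNNGC, the element bound by the oxidative stress factor Nfe2l2.
Gstp1: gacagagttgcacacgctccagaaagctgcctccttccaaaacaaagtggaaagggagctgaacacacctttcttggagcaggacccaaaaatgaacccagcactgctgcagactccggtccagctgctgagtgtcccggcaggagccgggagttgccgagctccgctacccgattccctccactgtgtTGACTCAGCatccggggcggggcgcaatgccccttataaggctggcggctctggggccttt
Gstp3: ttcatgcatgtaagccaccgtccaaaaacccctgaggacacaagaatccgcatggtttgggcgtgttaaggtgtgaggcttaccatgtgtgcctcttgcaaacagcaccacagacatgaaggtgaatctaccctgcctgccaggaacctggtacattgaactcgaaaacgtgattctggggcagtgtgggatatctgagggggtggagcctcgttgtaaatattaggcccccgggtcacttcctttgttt
The match in Gstp1 lies 61 to 53 bases before the start, and Gstp3 has none in this window. In a global alignment the windows were identical at 61.8% of aligned bases. Searched on both strands, this motif occurred in 4 of 40 member windows (Gsta3, Gstm5, Gstm7 and Gstp1), which is 10%, and in 10.1% of all 33469 windows. Windows were found for 37 of the 44 members.

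Mu-class glutathione transferases lay mostly on the liver side. Gstm1 read 13.94, 14.23 and 14.27 in control livers and 9.55, 9.98 and 8.98 in control kidneys. It was 25.0-fold higher in liver, a difference of 4.64 ± 0.26 (SE). Gstm2 read 13.12, 13.48 and 13.31 against 9.28, 8.80 and 8.88, a difference of 4.31 ± 0.16. Neither gene's organs overlapped. Gstm7 and Gstm4 were higher in liver by 2.62 ± 0.18 and 2.09 ± 0.20. Gstm5 went the other way, at 5.15, 6.20 and 6.13 in control livers and 7.36, 7.24 and 6.57 in control kidneys. Its difference of -1.23 ± 0.36 passed the test (limma, adjusted p = 0.0234) but not without kidney control 1 or kidney control 2, where it was -1.08 and -1.14. Gstm3, dim in both organs, did not pass (1.00 ± 0.43), and Gstm6l sat at 2.17 on all 12 arrays. The mu-class genes stand in 2 runs on chromosome 2, Gstm5, Gstm6l and Gstm7 in the first and Gstm3, Gstm2, Gstm1 and Gstm4 in the next, with no other protein-coding gene inside either run, and the 1 kidney-high mu gene is at the outer end of the first. Members of a class are close in sequence and probe sequences were not used here, so a probe set may also read a close relative of the gene it is named for, in the Gsta, Gstm, Ugt2b, Sult1c and Sult2a groups above all.

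Alpha- and theta-class members were mostly higher in renal cortex or close between the organs. Gsta3, an alpha-class enzyme, read 7.76, 7.10 and 7.55 in control kidneys and 2.64, 4.01 and 4.33 in control livers, a liver minus kidney difference of -3.81 ± 0.47 (SE). Gsta4, which conjugates 4-hydroxynonenal from lipid peroxidation, read 13.51, 13.50 and 13.41 in kidney and 12.55, 12.56 and 12.52 in liver. That difference, -0.93 ± 0.07, was small but larger than the spread, and the organs did not overlap. Gsta1 read 14.56, 14.82 and 14.58 in control kidneys and 14.36, 14.42 and 14.33 in control livers. Its difference of -0.28 ± 0.10 just passed (limma, adjusted p = 0.0399) but turned to 0.12 with each array centred on its median. It lost the call when any of 5 of the 6 arrays was left out, namely kidney control 2 or 3 or liver control 1, 2 or 3, with values from -0.32 to -0.20.

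Gstt1, the theta-class enzyme known for conjugating small halogenated compounds, read 10.18, 10.18 and 10.17 in control kidneys and 9.68, 10.13 and 10.07 in control livers. The difference of -0.21 ± 0.13 did not pass (limma, adjusted p = 0.196) and turned to 0.19 with median centring. Gstt2 read 10.59, 10.76 and 10.50 in liver and 9.91, 9.97 and 9.59 in kidney, 1.74-fold higher in liver (0.80 ± 0.13), and a second, dimmer probe set gave 0.87. Gstt3 was the kidney-high theta gene, at 14.47, 14.39 and 14.39 in kidney against 12.69, 12.99 and 13.02 in liver. Its difference was -1.52 ± 0.11, a 2.86-fold excess in kidney, although Gstt1 and Gstt3 are immediate neighbours on chromosome 20.

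The membrane-bound transferases divided as well. Mgst2, which can form leukotriene C4, read 11.97, 11.97 and 11.92 in control livers and 2.86 in each of the 3 control kidneys, a difference of 9.09 ± 0.06 (SE). Mgst1, an enzyme of the endoplasmic reticulum and outer mitochondrial membrane, read 15.40, 15.41 and 15.36 in liver and 13.54, 13.63 and 13.46 in kidney, 3.60-fold higher in liver. Mgst3 did not pass (-0.41 ± 0.18; limma, adjusted p = 0.0884). Gstk1, the kappa-class enzyme of mitochondria and peroxisomes, was 4.70-fold higher in liver. Gsto1, an omega-class enzyme that reduces dehydroascorbate, differed by -0.28 ± 0.07 (0.12 with median centring), with 12.32, 12.34 and 12.38 in control livers and 12.59, 12.70 and 12.60 in control kidneys. Gsto2, dim in both organs, did not pass (0.26 ± 0.14), and the alpha-class Gsta3l1 lay next to the lowest value on all 12 arrays.

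All 6 UDP-glucuronosyltransferases that passed were higher in liver, of 7 tested, beside 29.7% of all genes tested. Ugt2b1, Ugt2b10, Ugt2b34l1 and Ugt2a1 lay below the brightness filter in control kidney and entered the test through liver alone. Their direction was thereby fixed, and the count is a description. Ugt2b15 read 13.53, 13.34 and 13.62 in control livers and 2.56, 3.58 and 2.58 in control kidneys, the 3.58 in the kidney array of replicate 2. The difference was 10.59 ± 0.30 (SE), and 10.92 without that array. Ugt2b1, which glucuronidates testosterone and morphine, read 11.45, 12.19 and 12.46 in liver and 2.36, 2.17 and 2.36 in kidney (9.73 ± 0.26), and Ugt2b10 differed by 9.63 ± 0.15. Ugt2b35 alone among the Ugt2b genes was bright in both organs, at 14.26, 14.31 and 14.38 in liver and 12.99, 13.47 and 13.29 in kidney, a 2.10-fold difference (1.07 ± 0.14). Ugt2b34l1 and Ugt2a1 were dim in liver and higher there by 2.51 ± 0.18 and 1.12 ± 0.20, with Ugt2a1 at the shared lowest value in every control kidney. Ugt2b did not pass (1.22 ± 0.73), and Ugt2b7 read no more than 2.25 on any array.

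Ugt2b1 and Ugt2b35 are shown as the pair that separates a liver-restricted reading from a reading in both organs. Both windows are 250 bases before the RefSeq transcript start in GRCr8 on the plus strand, Ugt2b1 from chr14:21378632-21378881 and Ugt2b35 from chr14:21208191-21208440; capitals mark a match to the D-box, TTATGNAA, the element bound by the clock output factor Dbp and its relatives.
Ugt2b1: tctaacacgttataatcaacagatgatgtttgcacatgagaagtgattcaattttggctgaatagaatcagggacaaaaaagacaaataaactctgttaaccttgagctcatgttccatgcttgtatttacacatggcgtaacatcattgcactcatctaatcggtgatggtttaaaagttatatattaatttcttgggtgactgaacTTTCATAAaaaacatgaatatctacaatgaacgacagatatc
Ugt2b35: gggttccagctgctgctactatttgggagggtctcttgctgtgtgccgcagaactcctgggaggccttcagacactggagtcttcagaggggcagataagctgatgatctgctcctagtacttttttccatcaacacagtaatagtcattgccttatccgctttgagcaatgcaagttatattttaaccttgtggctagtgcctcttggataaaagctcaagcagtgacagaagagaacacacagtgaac
The D-box match of Ugt2b1 is on the reverse strand, 42 to 35 bases before the start, and Ugt2b35 has none in its window. Identity between the windows was 64.3% of aligned bases. Searched on both strands, the D-box occurred in 1 of 40 member windows and in 3.28% of all windows, and the E-box CACGTG, bound by the clock factors Clock and Bmal1, in 1 member window (Sult2b1) and in 5.59% of all.

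Sulfotransferases divided between the organs, 5 called higher in liver and 4 in kidney of 10 tested. These are 50% and 40%, beside 29.7% and 38.9% of all genes tested, so the kidney share lies near the background. Sult2a6, among the 5, lay below the brightness filter in control kidney and entered the test through liver alone. Sult1e1, the estrogen sulfotransferase, read 15.27, 15.18 and 15.24 in control livers and 2.40, 5.99 and 2.40 in control kidneys. The 5.99 belongs to the kidney array of replicate 2. The liver minus kidney difference was 11.63 ± 1.00 (SE; limma, adjusted p = 1.41e-04) with that array and 12.83 without it. Sult1c3 read 14.32, 14.33 and 14.12 in liver and 3.01, 3.70 and 2.51 in kidney (11.19 ± 0.30). Its relatives Sult1c2a and Sult1c2 were higher in kidney: Sult1c2a read 14.97, 15.09 and 15.00 there against 12.40, 12.66 and 12.40 in liver, a 5.77-fold excess in kidney (-2.53 ± 0.10). Sult1c2 read 12.72, 12.98 and 12.95 against 10.34, 11.14 and 11.14, a 4.02-fold excess in kidney (-2.01 ± 0.24), although Sult1c2 and Sult1c3 have only 1 protein-coding gene between them on chromosome 9.

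Of the other sulfotransferases, Sult1a1, the main phenol sulfotransferase, read 14.73, 14.35 and 14.19 in control livers and 10.26, 9.59 and 9.55 in control kidneys, 24.6-fold higher in liver. Sult1b1, which acts on thyroid hormones, was 3.79-fold higher in liver. Sult2b1, which sulfates cholesterol and pregnenolone, was higher in kidney, at 8.63, 8.33 and 8.83 against 6.96, 6.73 and 6.37 (-1.91 ± 0.20), and a second probe set gave -1.59. Sult4a1, best known from brain, read 5.54, 5.86 and 6.75 in kidney and 2.79, 2.65 and 2.65 in liver (-3.36 ± 0.31). Sult5a1 read 4.48 on 10 of 12 arrays and did not pass (-0.15 ± 0.09), and Sult1d1, Sult2a1, Sult2a2 and Sult6b2 were at or next to the lowest value on all 12.

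Sult2a6, a hydroxysteroid sulfotransferase of the group that sulfates dehydroepiandrosterone and bile acids, was the remaining liver gene, with 9.75, 9.72 and 11.25 in control livers and 2.19, 2.44 and 2.62 in control kidneys (7.82 ± 0.44). It is shown with Sult2a2 because the probe sets of these genes, whose windows are much alike, read so differently. Both are on the minus strand of chromosome 1 in GRCr8, Sult2a6 from chr1:84097809-84098058 and Sult2a2 from chr1:85104533-85104782; capitals mark a match to the consensus searched for HNF1, a factor of liver and kidney.
Sult2a6: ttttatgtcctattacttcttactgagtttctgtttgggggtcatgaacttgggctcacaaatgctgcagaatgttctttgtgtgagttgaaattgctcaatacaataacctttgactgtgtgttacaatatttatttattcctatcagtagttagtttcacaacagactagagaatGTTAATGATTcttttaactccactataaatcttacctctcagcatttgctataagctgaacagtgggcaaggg
Sult2a2: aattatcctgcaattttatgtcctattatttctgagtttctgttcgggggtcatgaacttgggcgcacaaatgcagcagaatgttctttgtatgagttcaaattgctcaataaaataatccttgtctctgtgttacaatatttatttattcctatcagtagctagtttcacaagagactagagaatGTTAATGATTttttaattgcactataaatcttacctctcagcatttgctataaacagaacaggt
Their windows were identical at 92.4% of aligned bases, and that of Sult2a1 matched Sult2a6 at 98%. This motif lies 73 to 64 bases before the start of Sult2a6 and 64 to 55 before that of Sult2a2. These were the only 2 of 40 member windows with it, against 0.323% of all windows on both strands. Because the 2 windows are so alike, their matches are not independent of each other. Which Sult2a gene the bright probe set reads cannot be told apart here.

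Genes that supply the cosubstrates were also divided between the organs, where 29.7% of all genes tested were higher in liver and 38.9% in kidney. Of 14 tested genes of glutathione supply and turnover, 4 were higher in liver and 9 in kidney, with a median liver minus kidney difference of -2.52 against -0.095 over all genes. Gclc, the catalytic subunit of the enzyme that starts glutathione synthesis, differed by -4.78 ± 0.13 (SE), and Ggt1, which begins the breakdown of glutathione conjugates, by -11.81 ± 0.22. Of 9 genes tested in a list around UDP-glucuronate supply and glucuronide cleavage, 8 were higher in liver. Among them were Ugdh, which makes UDP-glucuronate (0.74 ± 0.14), and Ugp2, one step before it (1.83 ± 0.10). The list was drawn broadly and also held Rgn, among the 8 (0.34 ± 0.09), and the nucleotide sugar transporter Slc35a3. Genes of sulfate and PAPS supply split, 7 higher in liver and 6 in kidney of 17. The 2 PAPS synthases went opposite ways, Papss1 at -4.54 ± 0.12 and Papss2 at 2.71 ± 0.19. Gstz1, the zeta-class transferase that also degrades dichloroacetate, a TCE metabolite, was higher in liver by 2.38 ± 0.11.

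After TCE, no member in liver passed limma's test. The largest difference was that of Sult2a6, which was lower in every treated liver than in any control liver. Gstp1 and Gsto2 averaged higher and Gstm5 lower in treated livers, none past the threshold and all with overlapping groups. Among bright members, Mgst1, Gstm1, Sult1e1, Ugt2b10 and Ugt2b35 differed by under 0.1 log2 units, and Gstt3, Sult1a1, Ugt2b1, Mgst3, Mgst2 and Gstt1 averaged lower in treated livers by more than 0.2. Of 37 members tested 0 were called at an adjusted p under 0.05, against a background of 0% over 10552 genes. At an unadjusted p under 0.05 there was 1 member, Sult2a6, against a background of 14.7%, and with any single array left out the count was 2 to 4. Treated and control values did not overlap for 6 of the 37, or 16.2%, against a background of 20.5%. The median TCE minus control difference was 0 over members and 0.034 over all genes.

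**Figure D2:**
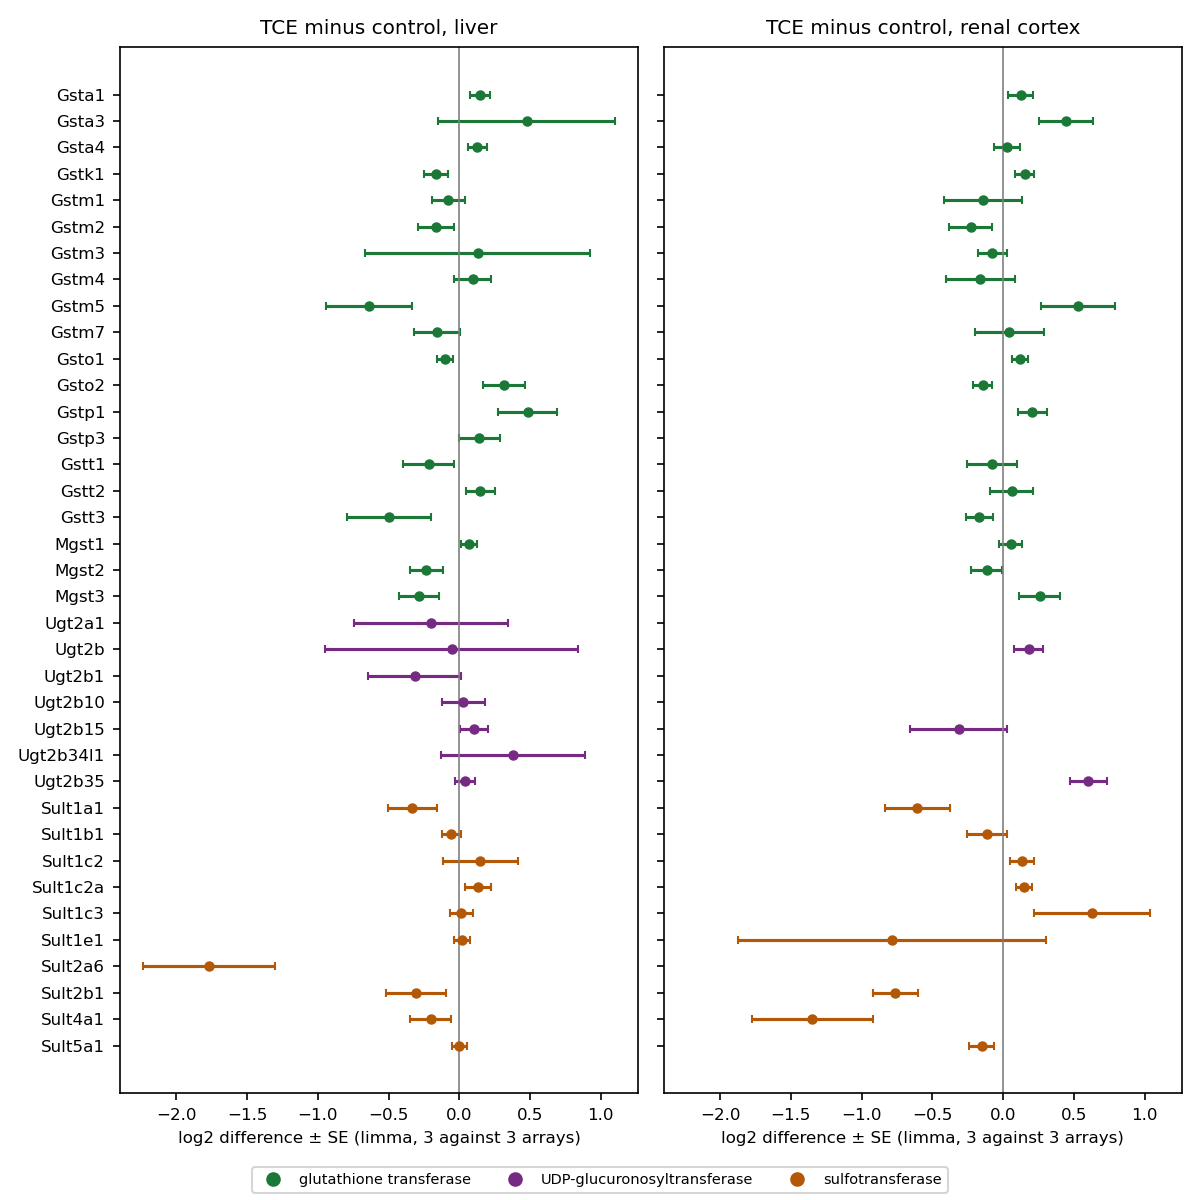
TCE minus control log2 differences in liver (left) and renal cortex (right), points with limma's SE, for every member tested in that organ; green, purple and orange mark glutathione transferases, UDP-glucuronosyltransferases and sulfotransferases. Most points lie within 0.5 log2 units of 0, Sult2a6 lies at -1.77 in liver and Sult4a1 at -1.35 in renal cortex, and none passed an adjusted p of 0.05.

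Sult2a6 read 9.75, 9.72 and 11.25 in control livers and 8.58, 8.74 and 8.10 in treated livers. The groups did not overlap, with liver control 3 well above the other controls. The difference was -1.77 ± 0.46 (SE), with a 95% interval of -2.94 to -0.60, corresponding to 3.41-fold lower in treated livers (limma, adjusted p = 0.238). Without liver control 3 it was -1.27, and over its alternatives limma gave adjusted p from 0.0419, where all 12 arrays shared 1 estimate of spread, to 0.849, where the Gapdh gap entered as a covariate.

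Gstp1 read 8.76, 8.49 and 8.33 in control livers and 9.00, 9.36 and 8.68 in treated livers. The groups overlapped, by 1 treated array, and the difference was 0.48 ± 0.21 (SE; limma, adjusted p = 0.362). Adding the Gapdh gap to the model gave -0.030 ± 0.51, where the gap cannot be parted from treatment. Gsta1 was narrowly separated, with 14.36, 14.42 and 14.33 in controls and 14.56, 14.43 and 14.56 in treated livers, a difference of 0.15 ± 0.07 (limma, adjusted p = 0.390). Gsto2 (0.31 ± 0.15), Gstm5 (-0.64 ± 0.30) and Mgst3 (-0.29 ± 0.14) overlapped between the groups, and Gstm5 was at 5.15, 6.20 and 6.13 in controls and 5.04, 5.31 and 5.20 in treated livers.

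Enzymes closest to TCE conjugation showed no called difference in liver. Gstt1 read 9.68, 10.13 and 10.07 in controls and 9.51, 10.01 and 9.72 in treated livers, and the 95% interval of the difference, -0.67 to 0.24, bounds what 3 rats a group could hide. Gstt2 differed by 0.15 ± 0.10 (SE) and Gstt3 by -0.50 ± 0.30, the latter with 1 low treated array at 11.76. Gstm1 differed by -0.08 ± 0.12, Gstm2 by -0.17 ± 0.13, Gsta3 by 0.48 ± 0.62 and Mgst1 by 0.07 ± 0.06. Ugt2b1 differed by -0.32 ± 0.33, with 11.45, 12.19 and 12.46 in controls against 11.26, 12.01 and 11.88. Sult1a1 differed by -0.33 ± 0.17 and Sult1e1 by 0.02 ± 0.06. Of 27 members with a mean above 8 log2 units in both liver groups, 19 differed by under 0.2, and for 23 the 95% interval lay within 1 log2 unit of 0. Sult2a1 sat at the lowest value in every liver and gives no comparison.

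Other measures moved with treatment in liver beside these values. The Gapdh gap was wider in treated livers, as given above, and 3 of 3 erythroid markers tested (Hbb, Alas2 and Slc4a1) read lower in treated livers, the mean of the 5 measured lying at 5.62 to 6.03 in treated and 6.29 to 6.65 in control livers with none at the lowest value on all arrays. Hepatocyte markers did not separate, at 14.8 in all 3 treated and 14.7 to 14.9 in control livers. Periportal hepatocyte markers overlapped, at 12.6 to 12.8 in treated and 12.7 to 13.1 in control livers, with 9 of 9 averaging lower. Lymphocyte and neutrophil markers, 3 of 8 of them at the lowest value on all arrays, averaged 4.33 to 4.52 in treated and 3.99 to 4.04 in control livers, with 5 of 5 tested higher. Fibroblast and stellate cell markers averaged 6.29 to 6.93 in treated and 5.86 to 6.18 in control livers, 9 of 10 higher. None of these markers was called by limma, and 56.5% of all genes tested averaged higher in treated livers. The Gapdh gap did not overlap between treated and control livers, so the fit with it as a covariate cannot part RNA quality from treatment. Beyond that covariate, the part of RNA quality and of these cells in the member values was not tested.

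In renal cortex no member passed either, and sulfotransferases held most of the larger differences. Sult2b1, Sult4a1 and Sult1a1 read lower and Ugt2b35 and Sult1c2a higher in every treated kidney than in any control kidney. Of 31 members tested, 0 were called, against a background of 0% over 10563 genes. At an unadjusted p under 0.05 there were 5 members, 16.1% against a background of 14.8%: 4 of 9 sulfotransferases, 1 of 3 UDP-glucuronosyltransferases and 0 of 19 glutathione transferases. Treated and control values did not overlap for 8 of 31, or 25.8%, against a background of 20.1%. These shares lie near the background, and the unadjusted count was 8 without kidney control 2 and 3 without kidney TCE 1. The median difference was 0.029 over members and 0 over all genes.

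**Figure D3:**
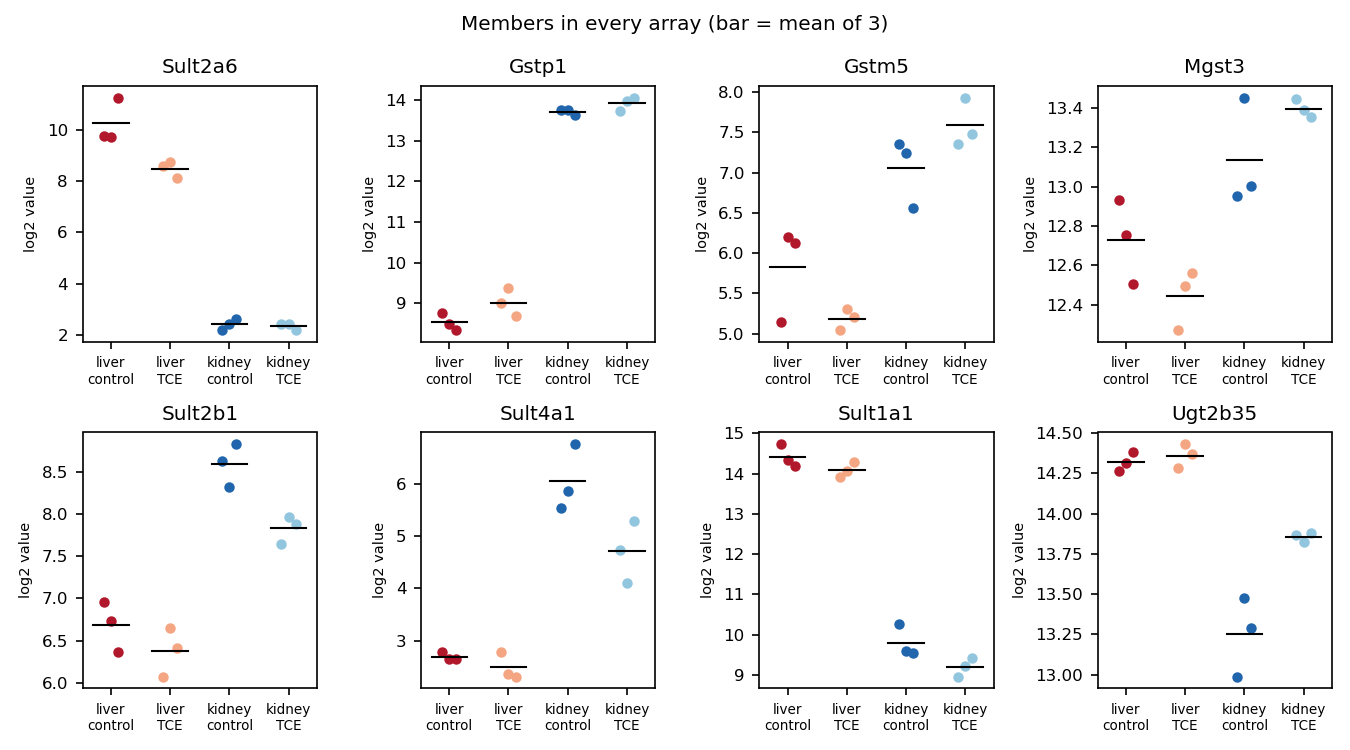
Log2 values of 8 members in every array, by group, with a bar at the mean of 3; each panel has its own vertical axis, which does not start at 0. Sult2a6 is lower in the 3 treated livers than in the 3 control livers, and Sult2b1, Sult4a1 and Sult1a1 are lower and Ugt2b35 higher in the 3 treated than in the 3 control kidneys, none of them past an adjusted p of 0.05.

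Sult2b1 read 8.63, 8.33 and 8.83 in control kidneys and 7.64, 7.97 and 7.89 in treated kidneys. The groups did not overlap, the difference was -0.76 ± 0.16 (SE; limma, adjusted p = 0.217), and a second probe set gave -0.82. Adding the Gapdh gap to the model gave -0.47. Ugt2b35 read 12.99, 13.47 and 13.29 in controls and 13.86, 13.82 and 13.88 in treated kidneys. Its treated arrays lay close together above all controls, a difference of 0.60 ± 0.13 or 1.52-fold (limma, adjusted p = 0.223). In liver, where it read 14.26 to 14.38 in controls, the difference was 0.04 ± 0.07.

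Sult4a1 read 5.54, 5.86 and 6.75 in control and 4.73, 4.10 and 5.29 in treated kidneys, a difference of -1.35 ± 0.43 (SE; limma, adjusted p = 0.279). Sult1a1 read 10.26, 9.59 and 9.55 against 8.95, 9.23 and 9.41, a difference of -0.61 ± 0.23 (limma, adjusted p = 0.326). Kidney control 1 is the high array here, and without it the value was -0.37. Sult1c2a was separated by little, 14.97, 15.09 and 15.00 against 15.19, 15.16 and 15.16, and differed by 0.15 ± 0.06 (limma, adjusted p = 0.334). Gsta3 differed by 0.44 ± 0.19, with overlapping groups.

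The other kidney members did not reach an unadjusted p under 0.05, some with differences near 2 SE. Gstk1 differed by 0.15 ± 0.07 (SE), Gsto1 by 0.12 ± 0.06 and Sult1c2 by 0.13 ± 0.09, each without overlap between the groups. Gstm5 differed by 0.53 ± 0.26, Gsto2 by -0.14 ± 0.07 and Mgst3 by 0.26 ± 0.15, with overlap. Gstt1 differed by -0.08 ± 0.18, Gstt2 by 0.06 ± 0.15, Gsta1 by 0.12 ± 0.09, Gstp1 by 0.21 ± 0.10, Gstm2 by -0.23 ± 0.15 and Mgst1 by 0.05 ± 0.08. Gstm1 differed by -0.14 ± 0.28 with kidney control 2 and by 0.095 without it. Of 17 members with a mean above 8 log2 units in both kidney groups, 12 differed by under 0.2, and for 16 the 95% interval lay within 1 log2 unit of 0. Sult1e1 read 2.40, 5.99 and 2.40 in controls and 3.72, 2.31 and 2.40 in treated kidneys, so that the difference was -0.79 ± 1.09 with kidney control 2 and 0.41 without it. Podocyte markers moved with treatment in kidney: 6 of 6 averaged higher, beside 49.8% of all genes tested, and none was called by limma. Their mean was 7.87 to 8.03 in treated and 7.34 to 7.48 in control kidneys, with none at the lowest value on all arrays. Proximal tubule markers lay at 13.4 to 13.5 in treated and 13.2 to 13.6 in control kidneys. The part of these cells in the member values was not tested.

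**Figure D4:**
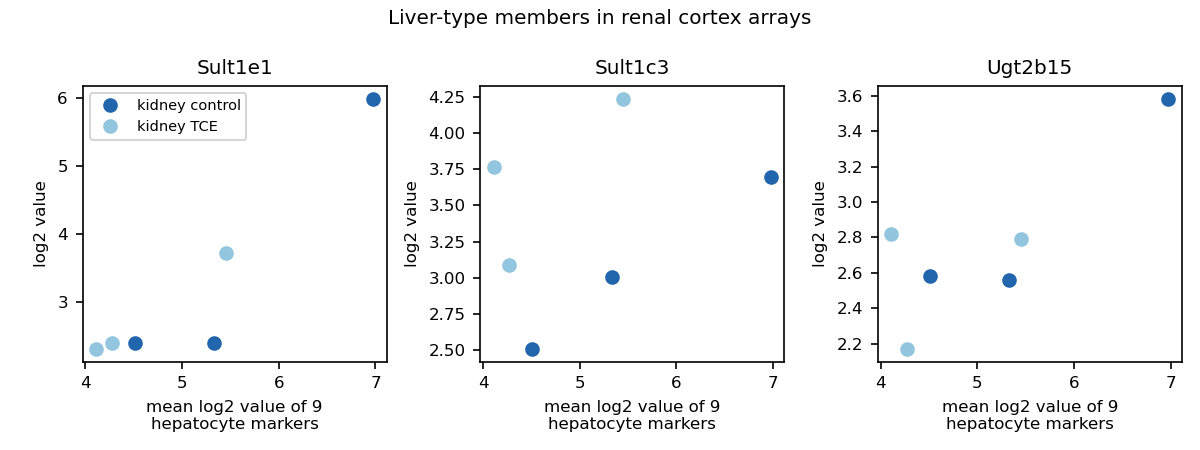
Log2 values of Sult1e1, Sult1c3 and Ugt2b15, bright in liver, in the 6 renal cortex arrays (vertical axes, which do not start at 0) against the mean of 9 hepatocyte markers in the same array (horizontal axis); dark points are control and light points treated kidneys. The control array with a marker mean of 6.98 has the highest Sult1e1 (5.99) and Ugt2b15 (3.58) of the 6, whereas the highest Sult1c3 (4.24) is in a treated kidney.

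The effect of TCE in liver was set against that in kidney in 1 fit over all 12 arrays. No member differed between the organs at an adjusted p under 0.05, 0 of 37 against a background of 0.535% (57 of 10652 genes). At an unadjusted p under 0.05 there were 8, or 21.6%, against a background of 17.5%: Ugt2b35, Sult2a6, Gstm5, Gstk1, Gsto2, Mgst3, Gsto1 and Sult4a1. Ugt2b35 had a liver effect 0.56 ± 0.16 (SE) below its kidney effect (limma, adjusted p = 0.128). For Sult2a6 the difference of effects was -1.71 ± 0.50 (limma, adjusted p = 0.137), but the gene was near the lowest value in all kidneys and could not have shown a lower level there. Gstm5 read lower in treated livers and higher in treated kidneys on average, a difference of effects of -1.17 ± 0.42 (limma, adjusted p = 0.20), and Mgst3 likewise (-0.55 ± 0.21; adjusted p = 0.232). For Sult2b1, -0.31 in liver and -0.76 in kidney, the difference of 0.46 ± 0.28 had an adjusted p of 0.419, so a kidney-only difference is not shown.

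Cosubstrate, export and regulator genes gave 0 calls in either TCE comparison. An unadjusted p under 0.05, reached by 14.7% of all genes in liver and 14.8% in kidney, was found for 3 of 14 glutathione supply genes in liver (Ggt5 at 0.89 ± 0.23, Gclc at -0.39 ± 0.14, Anpep at -0.24 ± 0.09) and 3 of 13 in kidney (Gclm, the modifier subunit of the Gclc enzyme, at 0.36 ± 0.10, Chac2 at 0.65 ± 0.22, Oplah at -0.37 ± 0.09). Ugdh stood 0.42 ± 0.14 higher in treated kidneys (limma, adjusted p = 0.288) and differed by -0.01 ± 0.14 in liver. Both PAPS synthases differed by under 0.2 in both organs. Nfe2l2, the activator that binds antioxidant response elements, differed by -0.10 ± 0.26 in liver and 0.18 ± 0.07 in kidney. Abcg2, which exports sulfate conjugates, differed by -0.52 ± 0.20 in liver and -0.30 ± 0.10 in kidney, and Abcc2, which exports glutathione and glucuronide conjugates into bile, by -0.03 ± 0.09 in liver.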

How the data were processed

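The authors deposited 1 table of log2 values for 31099 probe sets on 12 arrays (per the labels, 3 TCE and 3 control rats, liver and renal cortex). The log2 scale was read from the range. The packages affy and limma were used, per the submitters' processing notes; for versions, background correction, normalization and summary of probes, "not given in the sources used here" applies. Whether equal replicate numbers mark 1 rat is not said in the labels.

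Gene names of probe sets came from the platform annotation of GEO: 20826 had 1 symbol, 436 several and 9780 none. Of the members, 43 were found by gene ID in the RefSeq table of GRCr8, with 0 symbols changed. Genes with a mean above the 40th percentile of all probe sets over the arrays compared were tested (2.45 log2 units in liver, 2.43 in kidney, 2.55 in fits over both organs), which kept 37, 31, 37 and 37 members in the liver, kidney, difference and organ comparisons. Not tested in kidney were Gsta3l1, Gstm6l, Gstp3, Sult1d1, Sult2a1, Sult2a2, Sult2a6, Sult6b2, Ugt2a1, Ugt2b1, Ugt2b10, Ugt2b34l1 and Ugt2b7, and in liver Gsta3l1, Gstm6l, Sult1d1, Sult2a1, Sult2a2, Sult6b2 and Ugt2b7. Differences were tested in R 4.3.3 with limma 3.58.1 (lmFit and eBayes, two-sided, no covariates). p-values were adjusted by Benjamini-Hochberg across every gene tested in a comparison, and called below 0.05. The liver, kidney and organ comparisons used 6 arrays each, and the difference of effects all 12. The scripts were tested on simulated data. Each p-value sets a difference of group means against limma's estimate of the spread between arrays of a group, which also draws on the other genes. The organ comparison and the difference of effects took liver and kidney arrays as independent. The organ and liver comparisons share the control livers, and the organ and kidney comparisons the control kidneys.

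Named with values were the 10 called members of largest difference in each direction and the 2 smallest between organs, members at an unadjusted p under 0.05 or among the 3 smallest p in each direction after TCE, and preset genes of the families. Members and gene lists were chosen with earlier results of these data known. Alternatives were leaving out each array, a replicate block, median centring, quantile normalization, averaging the probe sets of a gene, no filter or a stricter one, array weights, robust variances with a trend, 1 fit of all 12 arrays, and the Gapdh gap as a covariate.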

Additional observations from a re-analysis of the deposited data

Results flagged for a closer look

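Gsto1 read lower in all treated livers than in any control liver (12.28, 12.21 and 12.24 against 12.32, 12.34 and 12.38) and higher in all treated kidneys than in any control kidney (12.78, 12.73 and 12.75 against 12.59, 12.70 and 12.60). The liver effect minus the kidney effect was -0.22 ± 0.09 (SE), which did not pass the test (limma, adjusted p = 0.255).

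Shared probe sets that carry several symbols belong to no single gene and were not tested. One probe set with 8 Ugt1 symbols read 12.09, 12.40 and 12.30 in treated and 11.81, 11.83 and 11.80 in control kidneys, without overlap, a mean difference of 0.45; in liver it differed by -0.096, with overlap. The other probe set with 8 Ugt1 symbols read 13.69, 13.77 and 13.78 in treated and 13.58, 13.65 and 13.63 in control livers, a mean difference of 0.13 without overlap, and differed by 0.14 in kidney with overlap. A probe set with 2 symbols, 1 of them in the Sult1c group, read 11.31, 11.45 and 11.37 in treated and 10.88, 11.16 and 11.28 in control kidneys, a mean difference of 0.27 without overlap. In liver that probe set differed by 0.43, with overlap. The remaining probe set, also with 2 symbols, differed by 0.047 in liver and -0.045 in kidney, with overlap in both organs.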

How the results depend on the processing

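The count of members called after TCE stayed at 0 in kidney and in the difference of effects under every alternative run, and in liver under all but 1: with all 12 arrays sharing a spread it was 1, Sult2a6. Leaving out each array gave 19 to 21 members higher in liver and 9 to 10 higher in kidney. Centring each array on its median moved the median organ difference of all genes from -0.095 to 0.31 and the members to 23 higher in liver and 8 higher in kidney (all genes called higher in liver, 43.3% to 64.8%); Gsta1 became 0.12, Gsto1 0.12 and Gstt1 0.19, all without a call. With the replicate block, 20 members were higher in liver and 9 in kidney, Gsta1 and Gstm5 losing their calls (limma, adjusted p = 0.0520 and 0.0543), 0 members were called after TCE, and the 57 genes of the difference of effects became 0. Deviations of same-numbered liver and kidney arrays correlated at 0.048 to 0.080 in controls and at -0.0070 to 0.064 after TCE. Differently numbered liver and kidney arrays correlated at -0.058 to -0.0073 in controls and at -0.070 to 0.053 after TCE. These values do not settle whether equal numbers mark 1 rat, and the main fits did not pair samples. Gstm5 between organs also missed the threshold without the filter and with median centring, and Gsta1 with array weights. The Gapdh gap as a covariate turned the sign of these liver values (± SE): Gstm1 0.053 ± 0.31, Gstm2 0.087 ± 0.33, Gstp1 -0.030 ± 0.51, Mgst3 0.13 ± 0.32, Sult1a1 0.24 ± 0.38 and Ugt2b1 0.12 ± 0.88. In kidney it turned Gstt1 to 0.33 ± 0.20. The gap was 1.21 to 1.70 in treated and 0.78 to 0.86 in control livers. This fit therefore cannot part the gap from treatment in liver, and its SEs are wider, for Gstp1 0.51 against 0.21 without the covariate. Gstt2 in kidney was -0.044 as the mean of its probe sets and -0.00080 with array weights. Signs also turned, over single arrays left out, for Gsta3 (-0.035 to 0.81) and Sult1e1 (-0.0028 to 0.038) in liver, and for Gstm1 (-0.41 to 0.095) and Sult1e1 (-1.38 to 0.41), both positive only without kidney control 2, Gstt1 (-0.28 to 0.049), Gstt2 (-0.059 to 0.14) and Mgst1 (-0.0041 to 0.10) in kidney. All values here but the called organ differences were uncalled; the cause was not tested. Over all genes, calls after TCE were 182 in liver with all 12 arrays and 17 without the filter, and in kidney 20 with all 12 arrays, 2 without the filter, 1 with the stricter filter and 1 with trend and robust variances. In the difference of effects they were 123 with array weights and 0 to 108 with 1 array left out. Signal near the lowest value limits the members that are dim in kidney.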

Other observations

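Enzymes that conjugate in other ways, or that prepare substrates, also differed between control organs. Of 12 other conjugation enzymes tested, 6 were higher in liver and 5 in kidney, beside 29.7% and 38.9% of all genes. Baat, which joins bile acids to glycine or taurine, was higher in liver by 11.91 ± 0.23 log2 units (SE), and Nnmt, which methylates nicotinamide, by 7.14 ± 0.21. Glyat, which forms glycine conjugates, was higher in kidney (-1.67 ± 0.16), as was Tpmt, which methylates thiopurines (-2.34 ± 0.11). Among transporters of conjugates, 4 of 12 were higher in liver and 7 in kidney, with Abcc2 at 7.72 ± 0.38, Slco1b2, which takes up bile acids and drugs, at 10.25 ± 0.18, and Slc22a6, which takes up organic anions in the proximal tubule, at -10.79 ± 0.09.

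After TCE, 0 of these 24 genes were called in liver or kidney by limma. In liver 1 of the 24, Abcg2, reached an unadjusted p under 0.05, and in kidney Nat1 (0.42 ± 0.16), Nnmt (-0.54 ± 0.19), Abcc1 (-0.41 ± 0.14) and Abcg2 did. The background over all genes tested was 14.7% in liver and 14.8% in kidney. Between the effects in the 2 organs, 2 cosubstrate or regulator genes passed: Slc35a3, a nucleotide sugar transporter, at -1.37 ± 0.24 (adjusted p = 0.0443), and Mafg, a partner of Nfe2l2, at 0.93 ± 0.13 (adjusted p = 0.0203). Slc35a3 was 1 of 9 genes tested in the broadly drawn UDP-glucuronate list and Mafg 1 of 10 regulators, beside 0.535% of all 10652 genes. The 14 glutathione supply and 17 sulfate and PAPS genes tested gave 0 calls. The calls of Slc35a3 and Mafg were lost with the replicate block, under which no gene was called.

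Of 13 circadian regulators tested, 9 in liver and 8 in kidney reached an unadjusted p under 0.05, none called by limma, beside 14.7% and 14.8% of all genes. Their median TCE minus control difference was 0.58 in liver and 0.38 in kidney, against 0.034 and 0 over all genes. Dbp, the factor that binds D-boxes, stood 3.71 ± 0.29 higher in treated livers (adjusted p = 0.106) and 1.56 ± 0.11 higher in treated kidneys (adjusted p = 0.156). In the difference of effects 2 of the 13 regulators passed, beside 0.535% of all genes. Dbp was among them (2.14 ± 0.32, limma, adjusted p = 0.0214), a call also lost with the replicate block. Ugt2b1, whose window holds the D-box match, differed by -0.32 ± 0.33 in the same livers. The part of circadian phase in the member values was not tested. Cyp2e1, the main oxidase of TCE, differed by -0.03 ± 0.08 in liver and 0.82 ± 0.20 in kidney (adjusted p = 0.250).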
